A study of Mus musculus with 6 samples.

Results

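The CCN genes encode a small family of secreted matricellular proteins, and 5 of them were followed here in mouse melanoma cells: Cyr61 (now Ccn1), Ctgf (Ccn2), Nov (Ccn3), Wisp1 (Ccn4) and Wisp2 (Ccn5). They were taken by symbol from a table of 54838 genes, and all 5 were found. The members were chosen by their counts and fold changes between fenofibrate and control in these same libraries, so those differences are given as a description and carry no test. Of the 5, 4 passed the filter on low counts that left 13629 genes for testing, and Wisp2 did not. Cultures treated with fenofibrate at 50 µM gave 3 libraries, and control cultures gave 3. The cells are B16F10, a pigmented mouse melanoma line selected for spread to the lung, and the study calls the replicates biological triplicates. The labels nevertheless name the line differently for each library, as B16F13, B16F14 and B16F15 with fenofibrate and B16F10, B16F11 and B16F12 in control. Taken as written, line and treatment cannot be told apart. Fenofibrate is a lipid-lowering drug that activates PPARα, a nuclear receptor. Time of treatment and vehicle were not given in the sources used here.

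CCN proteins do not build the matrix as collagens do. They sit in it and signal, by binding integrins and heparan sulphate on cells and by binding growth factors such as TGF-beta, BMPs and VEGF. Most members are made of an insulin-like growth factor binding module, a von Willebrand factor C module, a thrombospondin repeat and a cysteine knot, and Wisp2 lacks the cysteine knot. Cyr61 and Ctgf are rapidly induced by serum, by TGF-beta and by mechanical strain, and both are widely used as readouts of YAP and TAZ acting with TEAD factors. Nov often opposes the growth-promoting members and has been studied in human skin, where melanocytes use it in their attachment to the basement membrane. Wisp1 was first described as a gene induced by WNT1.

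Libraries held 13540038 to 14710856 counts, and 3 counts, the limit set by a count of 0, equal 0.204 to 0.222 CPM (counts scaled to the library total) depending on the library. Such limits and counting intervals cover counting error only. The summed CPM of 7 melanocytic markers ran from 26034 to 27577 in fenofibrate libraries and from 21209 to 22592 in control libraries, and all 7 were counted. Markers of fibroblasts, endothelial cells and keratinocytes, which can make CCN RNA in tissue, were low. Their lists of 6, 4 and 3 genes summed to at most 1.77, 0.544 and 0.0680 CPM in any fenofibrate library, and to at most 3.02, 0.662 and 0.142 CPM in any control library, with Cdh5, Kdr, Tek, Krt5 and Krt1 at 0 throughout. Of the fibroblast markers, Fap had 51 counts with fenofibrate and 7 in control (edgeR adjusted p = 0.0126), and Thy1 had 1 and 0. Pdgfra, Dcn, Lum and Col3a1 went the other way, with 9, 2, 1 and 7 counts against 37, 5, 12 and 19 in control. The 5 immune markers summed to 4.18 to 6.72 CPM with fenofibrate and 2.06 to 3.41 CPM in control, most of it Cd68, and Cd3e was at 0. Their part in the results was not tested. Cartilage markers also differed. Acan, Col2a1 and Matn1 together reached 0.974 to 1.56 CPM in fenofibrate libraries and 13.4 to 61.0 CPM in control libraries. The highest sum was that of control replicate 3, with 720 of its counts on Col2a1 against 171 in each of the other controls. Control replicate 3 also had the lowest Ctgf of the 6 libraries. Without it the log2 fold changes, fenofibrate over control, were 2.64 for Cyr61, 4.33 for Ctgf, 0.67 for Nov and 0.39 for Wisp1, close to those with it given later.

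One promoter sequence is shown, that of Cyr61, the only member for which a window was available. RefSeq promoter windows on GRCm38.p6 were matched for 1 of the 5 members, and Ctgf, Nov, Wisp1 and Wisp2 had none. The 250 bases before the start of Cyr61 lie at chr3:145649986-145650235 on the minus strand. Capitals mark, in order, a TEAD motif read on the opposite strand, a BMP element and a TATA box.
Cyr61: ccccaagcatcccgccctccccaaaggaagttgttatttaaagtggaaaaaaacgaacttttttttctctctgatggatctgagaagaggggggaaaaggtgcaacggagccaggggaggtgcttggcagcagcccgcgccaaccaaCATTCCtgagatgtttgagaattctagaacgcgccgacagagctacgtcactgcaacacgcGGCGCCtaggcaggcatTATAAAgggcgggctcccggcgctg
The TEAD motif (GGAATG) begins 103 bases before the start, the BMP element (GGCGCC) 42 bases and the TATA box (TATAAA) 25 bases before it. Searched the same way on both strands, the TEAD motif occurred in 12.6%, the BMP element in 9.59% and TATAAA in 12.4% of 32851 windows of this length. AP-1 sites (TGANTCA), cAMP response elements (TGACGTCA), SMAD boxes (CAGAC), CArG boxes bound by SRF and the PPAR direct repeat were looked for as well and had no match in these letters. They occurred in 6.75%, 1.55%, 42.2%, 1.47% and 0.0335% of all windows. A match is a string of letters and shows no binding, and a missing match says nothing of the factor.

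The 5 genes have the same number of exons but differ in size. Each has 5 exons in its longest coding transcript in GENCODE M21. Coding lengths were 1140 bases for Cyr61, 1047 for Ctgf, 1065 for Nov, 1104 for Wisp1 and 756 for Wisp2, which is 379, 348, 354, 367 and 251 codons before the stop. Wisp2, without the cysteine knot, is the shortest. Cyr61 and Ctgf are compact genes, spanning 3006 and 3242 bases. Only 4.48% and 5.17% of 11552 coding genes tested have as short a span, and the median is 24566 bases. Nov spans 8338 bases, Wisp2 12286 and Wisp1 31882. The pentamer ATTTA, the core of AU-rich elements that shorten the life of many early response transcripts, occurs 5 times in the 3′ untranslated region of Cyr61, 2 times in that of Ctgf, 6 times in that of Nov, 4 times in that of Wisp1 and 0 times in that of Wisp2. Its median is 1 among tested coding genes, of which 20.0% have at least as many as Cyr61 and 46.5% at least as many as Ctgf. For Nov and Wisp1 these shares are 15.6% and 26.5%.

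Fenofibrate-treated cells held several times more CCN RNA than control cells, and nearly all of it was Cyr61 and Ctgf. Summed over the 5 members, the level was 411 ± 25.8 FPKM with fenofibrate and 65.4 ± 3.87 FPKM in control (mean ± SD, n = 3 each), where FPKM is the authors' count scaled to gene length and library size. That is 6.28-fold. As a share of all counts the family took 0.107% with fenofibrate and 0.0182% in control. In bulk RNA, more cells making a transcript and more transcript per cell cannot be told apart. The gain of the family was 80.3% Cyr61 and 19.0% Ctgf, while Wisp1 gave 0.604% of it and Nov 0.0933%. With levels taken per merged exon length the gain was 71.2% Cyr61 and 28.0% Ctgf.

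Cyr61, which binds several integrins and drives adhesion, angiogenesis and senescence in other systems, was the most abundant member in every library. The gene is ENSMUSG00000028195 on chromosome 3, from 145646976 to 145649981 in GRCm38. It was counted 8532, 10553 and 9510 times in the fenofibrate libraries, against 1464, 1638 and 1451 times in control. In FPKM these were 312.1, 364 and 320.2 with fenofibrate and 53.3, 57.7 and 52.9 in control. The lowest fenofibrate library lay 5.64 times above the highest control in normalised CPM (scaled for library composition by TMM). The fitted fold was 6.31, with a 95% interval from 5.66 to 7.05 (log2 fold change 2.66 ± 0.07 SE). Cyr61 stood above 99.2% of tested genes in mean FPKM with fenofibrate and above 94.6% in control, so that it was already well expressed without treatment. Only 1 transcript is annotated, and no other gene overlaps it.

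Ctgf, a mediator of TGF-beta driven fibrosis and a cofactor for BMP and VEGF signals, showed the largest fold of the family. Its identifier is ENSMUSG00000019997, at 24595442 to 24598683 on chromosome 10. The fenofibrate libraries held 5421, 4479 and 3972 counts of it and the control libraries 192, 276 and 170. This corresponds to 84.2, 65.5 and 56.8 FPKM with fenofibrate and to 2.97, 4.12 and 2.63 FPKM in control. All 3 fenofibrate values were far above all 3 control values, the nearest pair being 14.3-fold apart in normalised CPM. The fitted fold was 22.0 (95% interval 15.8 to 30.8, log2 fold change 4.46 ± 0.21 SE). In mean FPKM Ctgf lay above 95.7% of tested genes with fenofibrate and above 38.3% in control. It was also the least even of the tested members within a group. Its coefficient of variation was 20.3% with fenofibrate and 24.2% in control, where those of Cyr61 were 8.37% and 4.84%. A noncoding gene on the other strand, Gm15270, shares 665 exonic bases with Ctgf. It had 30 counts in all fenofibrate libraries and 19 in all controls, against 13872 and 638 counts of Ctgf, and with no strand setting stated the reads of the shared bases cannot be told apart.

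**Figure D1:**
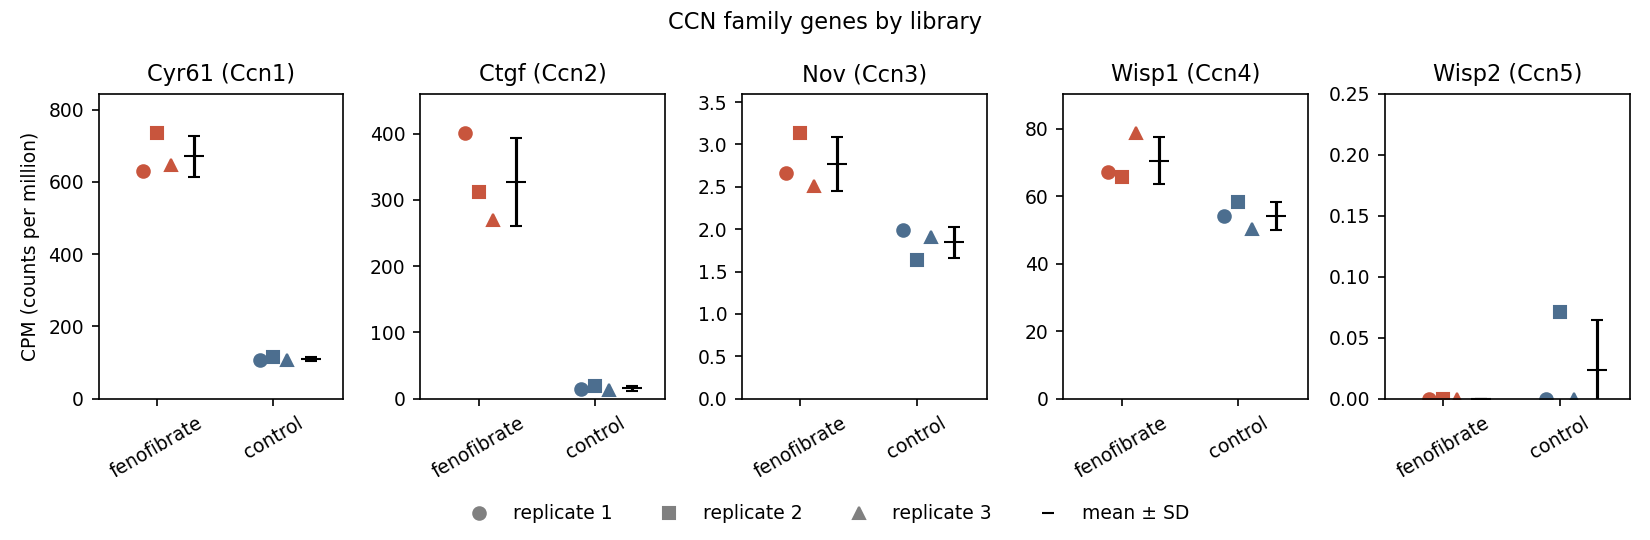
Level of each CCN gene in CPM (vertical axes from 0, a separate scale for each gene) in 3 fenofibrate and 3 control libraries, with the mean ± SD beside each group. Every fenofibrate library lies above every control library for Cyr61, Ctgf, Nov and Wisp1, while Wisp2 had 1 count in control replicate 2 and 0 elsewhere.

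Cyr61 and Ctgf ranked the libraries differently in the treated group and alike in control. Fenofibrate replicate 1 had the highest Ctgf and the lowest Cyr61 of the 3, and replicate 2 had the highest Cyr61. In control, replicate 2 was highest and replicate 3 lowest for both genes. With 3 libraries in a group, these orders do not settle whether the 2 genes vary together. The ratio of Ctgf to Cyr61 in FPKM was 0.270, 0.180 and 0.177 in the fenofibrate libraries and 0.0557, 0.0715 and 0.0497 in the control libraries. All fenofibrate ratios were above all control ratios, and the mean was 3.54 times that of control (0.209 ± 0.0525 with fenofibrate, 0.0590 ± 0.0113 in control, SD, n = 3 each). Cyr61 therefore remained the larger of the pair in treated cells, at 3.71 to 5.64 times the Ctgf level, against 13.98 to 20.1 times in control cells. The length behind the deposited FPKM of Ctgf was 4756 bases, while its exons merge to 2861 bases, and for Cyr61 both lengths were 2019 bases. Per merged exon length the ratio was 0.348 ± 0.0874 with fenofibrate and 0.0980 ± 0.0187 in control, so the deposited values understate Ctgf beside Cyr61 by 1.66 times in both groups.

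Wisp1, a WNT-induced member that has been linked to invasion and to immune evasion in mouse melanoma, was moderately expressed and differed little. On chromosome 15 it covers 66891320 to 66923201 (ENSMUSG00000005124). Its counts were 910, 946 and 1157 with fenofibrate and 735, 821 and 682 in control, or 8.56, 8.38 and 10.01 FPKM against 6.88, 7.43 and 6.39 FPKM. The groups did not overlap, but the gap was narrow, since the lowest fenofibrate library was 1.17 times the highest control in normalised CPM. The fitted fold was 1.35 (95% interval 1.17 to 1.56, log2 fold change 0.44 ± 0.09 SE). Its highest library was fenofibrate replicate 3, which had the lowest Ctgf of the treated group.

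Nov was hardly expressed. The gene, ENSMUSG00000037362, runs from 54745702 to 54754039 on chromosome 15. Fenofibrate libraries had 36, 45 and 37 counts and control libraries 27, 23 and 26, or 0.927, 1.09 and 0.877 FPKM against 0.692, 0.570 and 0.666 FPKM. The 3 fenofibrate values were again all above the 3 control values. Pooled over a group, the 118 fenofibrate counts gave 2.77 CPM, with an exact Poisson 95% interval from 2.29 to 3.32. The 76 control counts gave 1.84 CPM, with an interval from 1.45 to 2.31, so the intervals overlapped slightly. The fitted fold of 1.56 had a 95% interval from 1.14 to 2.13 (log2 fold change 0.64 ± 0.19 SE). At this depth the size of the Nov difference is poorly fixed.

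Wisp2 was not detected beyond a single count. It is ENSMUSG00000027656, at 163820861 to 163833146 on chromosome 2. All 3 fenofibrate libraries had 0 counts, and the controls had 0, 1 and 0. The limit for 0 counts over the whole treated group is 0.0704 CPM, and no difference could be seen at this depth. The remaining gene of the mouse family, Wisp3 (Ccn6), is not among the members. It had 0, 2 and 0 counts with fenofibrate and 4, 10 and 3 in control, or 0.0469 CPM with fenofibrate (exact Poisson 95% interval 0.00568 to 0.170) and 0.412 CPM in control (0.240 to 0.660). These few counts ran opposite to those of the 4 tested members, and 482 exonic bases of Wisp3 are shared with Tube1 on the other strand, which had 617 counts with fenofibrate and 728 in control.

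The order of the members changed between the groups in one place. In treated cells it was Cyr61, Ctgf, Wisp1, Nov and Wisp2, and in control cells Wisp1 stood above Ctgf. Wisp1 stood at 0.102 to 0.176 times the Ctgf level in FPKM in the fenofibrate libraries and at 1.80 to 2.43 times in the controls. Per merged exon length, control Wisp1 ran from 9.01 to 10.5 and control Ctgf from 4.37 to 6.86 CPM per kilobase, so the order held with the lengths corrected. No neighbours in either order overlapped between Cyr61, Ctgf, Wisp1 and Nov. Ctgf made up 16.8% ± 3.44 of the family FPKM with fenofibrate and 4.92% ± 0.884 in control. Wisp1 made up 2.20% ± 0.345 with fenofibrate and 10.5% ± 0.294 in control, while the share of Cyr61 was 80.8% ± 3.36 with fenofibrate and 83.5% ± 0.965 in control (SD, n = 3 each). Per merged exon length, Ctgf made up 24.8% ± 4.56 with fenofibrate and 7.60% ± 1.32 in control, Wisp1 2.77% ± 0.454 with fenofibrate and 13.8% ± 0.339 in control, and Cyr61 72.2% ± 4.396 with fenofibrate and 77.7% ± 1.35 in control.

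**Figure D2:**
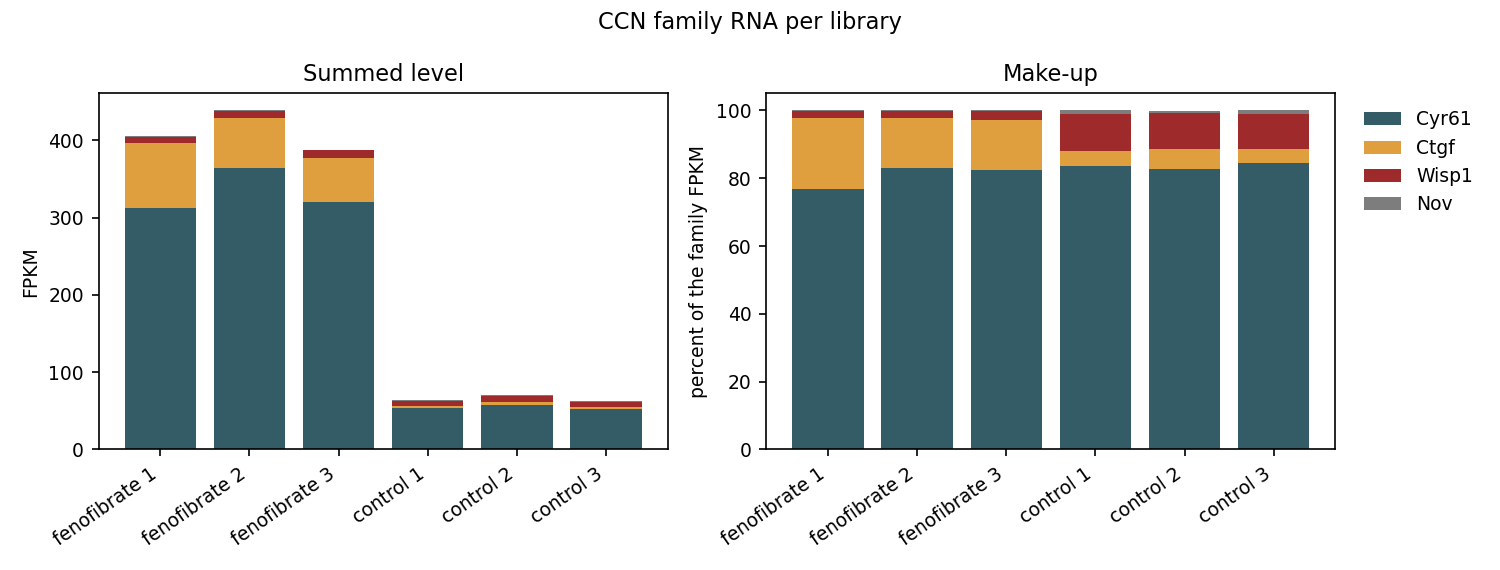
Summed FPKM of the family in each library (left) and the share of each member in that sum (right), with Wisp2 too low to be drawn. The 3 fenofibrate libraries reach 388 to 439 FPKM and the 3 control libraries 62.5 to 69.8 FPKM, and the Ctgf band is wider and the Wisp1 band narrower with fenofibrate.

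All 4 members tested had fenofibrate values above every control value. Among all 13629 genes tested, the groups did not overlap for 53.3%, with 26.4% higher and 26.9% lower, and since the members were chosen with these values known nothing is read from their count. Ranked by fitted fold from the highest, Ctgf stood at 13, Cyr61 at 56, Nov at 1090 and Wisp1 at 1851. The median log2 fold change over all genes was -0.00.

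The receptors and binding partners of CCN proteins were examined next, in lists chosen with earlier results of these data known. In edgeR's quasi-likelihood test with Benjamini-Hochberg adjustment at 0.05 over all genes, 39.1% of genes were called, 19.5% higher and 19.5% lower. That even split of 2664 higher and 2662 lower rests on the TMM scaling, and with library totals alone 2180 genes were higher and 3280 lower. Of 20 receptors and partners 15 were tested. The test called 8 higher and 1 lower and left 6 uncalled, and their median log2 fold change was 0.38. Itgb3, the beta chain of the vitronectin receptor through which Cyr61 acts on endothelial cells, rose 2.59-fold, to 76.7 ± 10.5 normalised CPM with fenofibrate against 29.6 ± 4.51 in control (SD, n = 3 each, edgeR adjusted p = 0.000286). Fn1, the fibronectin gene, rose 2.25-fold (edgeR adjusted p = 0.000111). Fibronectin's receptor chains Itga5 and Itgb1 rose 1.42-fold and 1.27-fold, with edgeR adjusted p values of 0.00266 and 0.000151. The endocytic receptor gene Lrp1 and the WNT coreceptor gene Lrp6, whose products bind Ctgf, rose by log2 fold changes of 0.40 and 0.38 (edgeR adjusted p = 0.00688 and 0.000853). Gja1 (connexin 43), whose product binds Nov, fell to 0.593 of control (edgeR adjusted p = 0.000561).

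Itgav, the alpha chain that pairs with Itgb3, could not be read. It had 1110, 3830 and 1262 counts with fenofibrate and 1264, 1358 and 3635 in control, so a single library of each group stood far above the others. Its log2 fold change was -0.02 ± 0.56 SE (edgeR adjusted p = 0.982). The heparan sulphate proteoglycan gene Sdc4, a coreceptor for Cyr61, had a log2 fold change of -0.10 ± 0.05 SE (edgeR adjusted p = 0.129, and 0.0258 to 0.0312 under limma and library totals), and Notch1, which Nov binds, 0.12 ± 0.11 SE (edgeR adjusted p = 0.406). The leukocyte integrin genes Itgam and Itgad had 0 counts in all 6 libraries. Decorin (Dcn), which binds Ctgf, had 2 counts with fenofibrate and 5 in control.

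Few of the growth factors that CCN proteins bind were expressed. Of 10, only 3 could be tested, 1 rose, 0 fell and 2 were not called, and the median log2 fold change was -0.16. Bmp2, Bmp4, Gdf5 and Igf1 had 0 counts in all 6 libraries. Igf2 had 0 counts with fenofibrate and 107 in control and was not tested. Control replicate 3, the library with the highest sum of cartilage markers, held 100 of these counts. Tgfb1 had a log2 fold change of -0.30 ± 0.13 SE (edgeR adjusted p = 0.115), and Vegfa of -0.16 ± 0.08 SE (edgeR adjusted p = 0.162). Pdgfb, a platelet-derived growth factor gene, rose 2.50-fold from a low level (0.398 FPKM with fenofibrate, 0.165 in control, edgeR adjusted p = 0.00235) and was named after its values were seen.

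Among 32 transcription regulators of CCN genes, of which 28 were tested, 11 rose and 6 fell, and 11 did not pass. Their median log2 fold change was 0.01. The factors known to act on Cyr61 and Ctgf did not move as one across classes, but every tested AP-1 gene rose. Fosl2, an AP-1 subunit, rose 8.86-fold to 16.6 FPKM with fenofibrate against 1.95 in control (edgeR adjusted p = 5.18e-06). Fos, Fosb, Jun, Junb and Jund rose 3.883-fold, 5.937-fold, 1.799-fold, 2.342-fold and 1.598-fold (edgeR adjusted p at most 0.0031). Srf rose 2.523-fold (edgeR adjusted p = 6.75e-05). Srf and these AP-1 genes other than Fosl2 were named after their values were seen. Fosl1 had 2 counts with fenofibrate and 0 in control and was not tested. Smad7 and Skil, which restrain SMAD signalling and are induced by it, rose 7.95-fold and 6.62-fold (edgeR adjusted p = 2.34e-06 and 4.04e-05). The YAP paralog gene Wwtr1 rose while Yap1 fell, with log2 fold changes of 0.56 ± 0.05 and -0.32 ± 0.04 SE (edgeR adjusted p = 0.0002 and 0.000768). The TEAD factors, through which YAP and TAZ bind DNA, were split. Tead4 rose 3.29-fold, to 11.02 ± 1.13 FPKM with fenofibrate against 3.47 ± 0.188 in control (SD, n = 3 each, edgeR adjusted p = 2.4e-05). Tead3 fell to 0.559 of control at a low level (0.444 FPKM with fenofibrate, 0.825 in control, edgeR adjusted p = 0.00763). Tead4 and Tead3 were both named after their values were seen. Tead2 fell to 0.697 of control, Smad3, which carries the TGF-beta signal to Ctgf, to 0.816, Sp1 to 0.780 and Klf15, described as a repressor of Ctgf in heart and kidney, to 0.459, with edgeR adjusted p values of 0.00589, 0.0023, 0.00211 and 0.000273. Tead1 was counted unevenly in control and was not called (log2 fold change -1.27 ± 0.49 SE, edgeR adjusted p = 0.0792). Without control replicate 2 it passed, at -1.65 (edgeR adjusted p = 0.0132), and without control replicate 3, which held 898 of its 1474 control counts, it was at -0.48 (edgeR adjusted p = 0.227). Other uncalled regulators were uneven as well. Ets1 had 2210, 7466 and 2489 counts with fenofibrate and 9111, 9527 and 2612 in control. Vgll3 had 2886, 3516 and 6165 counts with fenofibrate and 5324, 1751 and 5368 in control, so neither could be read. Smad5 had 1537, 3802 and 2811 counts with fenofibrate and 4001, 4024 and 3789 in control (log2 fold change -0.54 ± 0.25 SE).

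Other YAP and TAZ targets, with the CCN genes left out, split. The list has 21 genes, 16 of them tested. Of these 6 rose and 3 fell, 7 did not pass, and the median log2 fold change was -0.02. The growth arrest gene Gadd45a rose 2.81-fold, the tissue factor gene F3 1.81-fold and the angiomotin-like gene Amotl2 1.34-fold (edgeR adjusted p = 0.000558, 8.19e-05 and 0.00375). The LIM protein gene Ajuba fell to 0.793 of control and Arhgef17 to 0.821 (edgeR adjusted p = 0.00571 and 0.0037). Ankrd1, the target most often measured beside Cyr61 and Ctgf, had 7 counts with fenofibrate and 1 in control and could not be tested.

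Genes whose proteins share a module with the CCN family were mostly silent. Of 39, only 9 could be tested. Of these 3 rose and 1 fell, 5 did not pass, and the median log2 fold change was 0.37. Thbs1, the thrombospondin that gives the thrombospondin repeat its name, rose 5.5-fold to 11.3 FPKM with fenofibrate against 2.13 in control (edgeR adjusted p = 3.65e-05). Crim1, with von Willebrand factor C modules, rose 1.29-fold and Vwf, which has both that module and a cysteine knot, 3.34-fold, to 0.469 FPKM with fenofibrate against 0.145 in control (edgeR adjusted p = 0.0067 and 0.000177). Igfbp4, a binding protein that holds insulin-like growth factors, fell to 0.516 of control (edgeR adjusted p = 2.15e-05).

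Matrix genes that CCN proteins are known to act on or sit beside showed no common direction. Of 15 genes 10 were tested. Of these 4 rose and 1 fell, 5 did not pass, and the median log2 fold change was 0.14. Sparc, another matricellular protein gene, rose 1.55-fold to 333 FPKM with fenofibrate against 223 in control (edgeR adjusted p = 0.000168). Col4a2, a basement membrane collagen gene, rose 1.13-fold (edgeR adjusted p = 0.0385), a call that was lost in all 12 alternative settings tried. The call of Postn, the periostin gene, which rose 1.48-fold (edgeR adjusted p = 0.0215) and was named after its values were seen, was lost in 8 of the 12, so that 2 to 3 genes of the list were higher in the alternatives. The fibrillar collagen gene Col1a2, which rises with Ctgf in fibrosis, fell by 1.64 on the log2 scale (edgeR adjusted p = 4.18e-05). The smooth muscle actin gene Acta2, a marker of myofibroblasts, had 21 counts with fenofibrate and 0 in control.

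**Figure D3:**
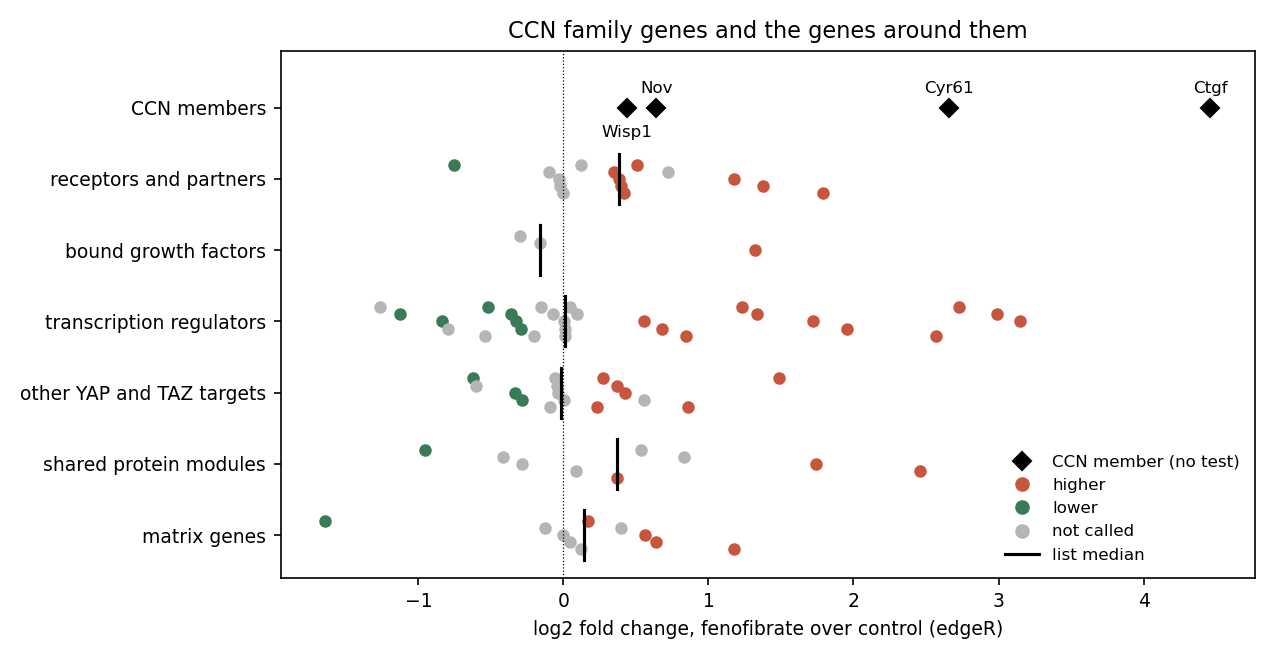
Log2 fold change, fenofibrate over control, of the 4 tested CCN members (diamonds, no test) and of the tested genes of 6 lists (dots, coloured by edgeR call, with the list median as a bar). Ctgf at 4.46 lies to the right of every listed gene, and the medians of the lists lie between -0.16 and 0.38.

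Genes beside the CCN genes on the chromosome were looked at for shared differences. Cyr61 has Znhit6 42181 bases away on one side and Ddah1 108694 bases away on the other, the nearest tested coding genes, and neither was called (log2 fold changes 0.03 and 0.31, edgeR adjusted p = 0.842 and 0.0941). Enpp1, 39231 bases from Ctgf, was not called either (log2 fold change -0.08, edgeR adjusted p = 0.849). Wisp1 lies 6117 bases from Ndrg1, a metastasis suppressor gene induced by hypoxia and on the opposite strand, which rose 3.44-fold (edgeR adjusted p = 2.9e-06), while Tg on the other side had a log2 fold change of -0.07 (edgeR adjusted p = 0.574). Enpp2, the autotaxin gene that makes lysophosphatidic acid, lies 84862 bases from Nov and fell to 0.552 of control (edgeR adjusted p = 0.000255). Of the neighbours of Wisp2, Ada fell to 0.519 of control (edgeR adjusted p = 0.0156, but 0.0518 without fenofibrate replicate 2 and 0.0509 without control replicate 3) and Ywhab had a log2 fold change of 0.00 (edgeR adjusted p = 0.964).

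Finally, the genes whose pattern over the 6 libraries was most like that of each member were sought. Likeness was measured as the root mean square distance between log2(normalised CPM + 0.5) values centred on each gene's mean, over 13628 other genes, and is a description. Nearest to Cyr61 were Id2, an inhibitor of basic helix-loop-helix factors, at 0.153, the helix-loop-helix factor gene Atoh8 at 0.161 and Phldb3 at 0.172. Id2 stood at 758 normalised CPM with fenofibrate and 101 in control. Nearest to Ctgf were Id1 at 0.290, the BMP antagonist gene Nog at 0.314 and the corepressor gene Hr at 0.371. Nog had 106, 122 and 133 counts with fenofibrate and 0 in every control, which is at least 117-fold higher against a limit of 3 counts over the control group. In control its value is the added 0.5 alone, so its distance to Ctgf depends on that offset and says little of likeness. Nov was nearest to Cacnb3, Lmo7 and Cdk5 and Wisp1 to Eogt, Gm11110 and Zfp719, at distances from 0.0358 to 0.0549. The folds of these 6 genes ran from 1.34 to 1.49.

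Within the family the nearest pair was Nov and Wisp1, at a distance of 0.200, but 2151 genes lay nearer to Nov than Wisp1 did and 2989 nearer to Wisp1 than Nov did. Cyr61 and Ctgf were 0.921 apart, and 475 genes lay nearer to Cyr61 than Ctgf did, while 22 lay nearer to Ctgf than Cyr61 did. Such distances mainly follow the fold changes, which were known when the members were chosen. Ctgf ranked at 13 by fold, where few genes can lie near, so the smaller number shows no special likeness to Cyr61.

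**Figure D4:**
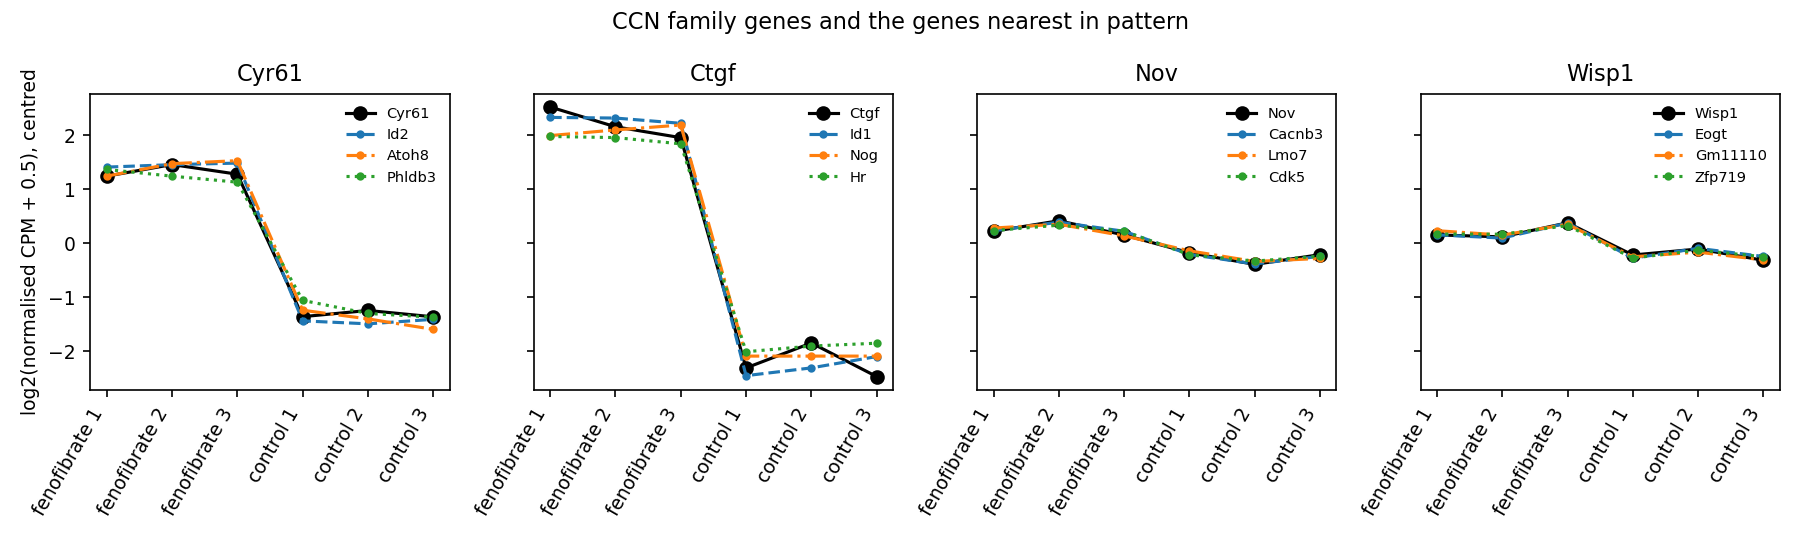
Centred log2(normalised CPM + 0.5) of each tested CCN gene (black) and of the 3 genes nearest to it in pattern, over 3 fenofibrate and 3 control libraries, with lines that only join the points of a gene. Cyr61 and Ctgf and their nearest genes form a high step between the groups, while Nov and Wisp1 and their nearest genes show a much lower one.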

How the data were processed

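RNA was enriched for mRNA and sequenced from 3 fenofibrate and 3 control cultures. The deposited table holds raw counts per gene and, made by the authors, FPKM values for each library. The submitters' processing notes name GRCm39 as the build and, without their roles, StringTie 1.3.0 and HISAT2 2.0.4. Counting tool and strand setting are not given in the sources used here. Start and end equal those of GENCODE M21 (GRCm38) for 98.5% of matched gene IDs, so coordinates are given in GRCm38.

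Counts were filtered with filterByExpr, scaled by TMM and tested with edgeR 4.0.16 (glmQLFit, glmQLFTest, no covariate) in R 4.3.3, with Benjamini-Hochberg adjustment over 13629 genes. The SE is the log2 fold change divided by the square root of F. Depth was 13540038 to 14710856 counts per library. P-values set the difference between the groups against the spread among libraries of a group, and cover only these samples. The members and the lists were chosen with earlier results of these data known. From each list, up to 3 genes called higher and 3 lower with the largest change and at least 1 FPKM were named, and genes whose role is described. All 137 list entries matched a gene. Alternatives were DESeq2 1.42.0, limma 3.58.1 on log2(FPKM + 0.5) and log2(FPKM + 0.1) for genes with a group mean of at least 0.5 FPKM, no filter, library totals, a replicate block and leaving out each library.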

Additional observations from a re-analysis of the deposited data

How the results depend on the processing

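The higher level of Cyr61, Ctgf, Nov and Wisp1 with fenofibrate kept its direction in all 12 alternatives. Leaving out each library in turn gave log2 fold changes of 2.59 to 2.70 for Cyr61, 4.29 to 4.67 for Ctgf, 0.54 to 0.70 for Nov and 0.35 to 0.49 for Wisp1. The Ctgf to Cyr61 ratio was then 3.03 to 3.97 times that of control. With limma on log2(FPKM + 0.5) the Nov difference was 0.36, with a pseudocount close to the FPKM of Nov. Limma with either pseudocount called 2 receptors lower and 2 matrix genes higher. Its count of 0 growth factors higher says nothing of Pdgfb, which lay under its minimum of 0.5 FPKM and was not fitted; Pdgfb kept its call in the other 10 alternatives. Library totals alone gave 2 receptors lower, and DESeq2 gave 2 matrix genes higher. Leaving out libraries gave 2 to 3 matrix genes higher and 1 to 2 genes with shared modules lower. Limma with a pseudocount of 0.5 called 2031 genes higher and 3036 lower. Over all genes, 5326 were called, and 4248 to 4782 with a library left out. With a replicate block 4540 genes were called, and log2 fold changes were 2.66 for Cyr61, 4.46 for Ctgf, 0.64 for Nov and 0.43 for Wisp1. Same-numbered libraries had deviations correlated at 0.0302, 0.0134 and 0.0129, and differently numbered ones at -0.0212 to 0.00737. The same-numbered values were the highest, but all were small and do not settle whether the numbers mark pairs. Of the alternative values for single genes, 505 kept direction and call, 22 lost the call (12 of them Col4a2, 8 Postn and 2 Ada), and 4 gained it. The other 15, all of uncalled genes, changed sign. Srf and the AP-1 genes other than Fosl2 were not in this tally. Ywhab was at -0.000877 with no filter, -0.0520 and -0.0522 under limma with pseudocounts of 0.5 and 0.1, -0.0524 with library totals, and -0.0147 to 0.0160 with a library left out. Znhit6 was at -0.0276 and -0.0300 under limma likewise, -0.0279 with library totals, and -0.0472 to 0.0658 with a library left out. Leaving out libraries gave -0.29 to 0.32 for Enpp1 and -0.80 to 0.67 for Itgav. The cause was not tested. Depth limits Nov, and Wisp2 and Wisp3 could not be tested.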
